A study of Mus musculus with 6 samples.

Results

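Immune cells were the 216 of 8944 cells that carried the authors' label Immune in a single-cell data set of mouse retinas with oxygen-induced retinopathy (OIR), in which vessels are lost in high oxygen and then regrow abnormally. All mice were kept at 75% oxygen from P7 to P12 and their retinas were taken at P14, and 3 to 5 retinas were pooled in each of 3 replicates from eNOS+/+ mice (C57BL/6J) and 3 replicates from eNOS-/- mice, which lack endothelial nitric oxide synthase in every cell. Cell suspensions were enriched with beads against CD31, a protein of endothelial cells (ECs) that leukocytes also carry, so the immune cells were those that passed this selection, and their share is not their share of the retina. Drop-seq captures single cells in droplets together with barcoded beads, and the unique molecular identifier (UMI) of a captured molecule lets it be counted once. Levels are given as counts per 1000000 UMIs (CPM) of the summed immune cells of a replicate.

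Microglia are the resident macrophages of the retina. They clear debris, prune synapses and secrete C1q, the recognition molecule of the classical complement pathway, and they gather around vessels that regrow after high oxygen. Border macrophages, which line vessels and membranes, and monocytes, which enter from blood, share most genes of microglia and are separated from them by a small number of markers. The immune cells were therefore described by the 4 genes of the label, by lists of lineage markers and by sub-clusters.

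The replicates contributed unequally. Replicates 1, 2 and 3 of eNOS+/+ held 21, 1 and 26 immune cells (8207, 349 and 24073 UMIs), and those of eNOS-/- held 65, 74 and 29 (72529, 47071 and 15236 UMIs). The eNOS+/+ replicate 2 thus stood on a single cell of 349 UMIs, and results are also given without it. The immune cell at the median had 518 UMIs and 327 genes with a UMI. A final base was all that set 92 of the 216 barcodes, each 12 bases long, apart from a further barcode in their replicate, and they formed 27 families, in all of which every member was labelled Immune. Counted by family there were 151 immune cells, which leaves the sums of UMIs unchanged. None of the immune barcodes occurred in more than 1 replicate.

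Immune cells made up 2.06%, 0.163% and 1.86% of the cells of the eNOS+/+ replicates and 3.64%, 1.99% and 6.99% of those of the eNOS-/- replicates. The 95% Wilson intervals, which cover counting error only, ran from 4.91% to 9.86% for the highest replicate (eNOS-/- replicate 3) and from 0.0288% to 0.918% for the lowest. They take each barcode as a separate cell, so they are too narrow where the barcodes of a family are the same cell. The means were 1.36% ± 1.04 (SD, n = 3) and 4.21% ± 2.55 (SD, n = 3), a difference of 2.85 percentage points (two-sided exact permutation test, p = 0.2, where 0.1 is the smallest value that 3 against 3 can give). The groups overlapped, since eNOS-/- replicate 2 lay below eNOS+/+ replicate 1. Without eNOS+/+ replicate 2 the difference was 2.25 points (exact permutation p = 0.4), and without eNOS-/- replicate 3 it was 1.45 points (exact permutation p = 0.4). Among cells that were not ECs, immune cells made up 4.04%, 1.20% and 8.47% in eNOS+/+ and 12.1%, 5.12% and 22.8% in eNOS-/- replicates, which also overlapped (exact permutation p = 0.2).

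**Figure D1:**
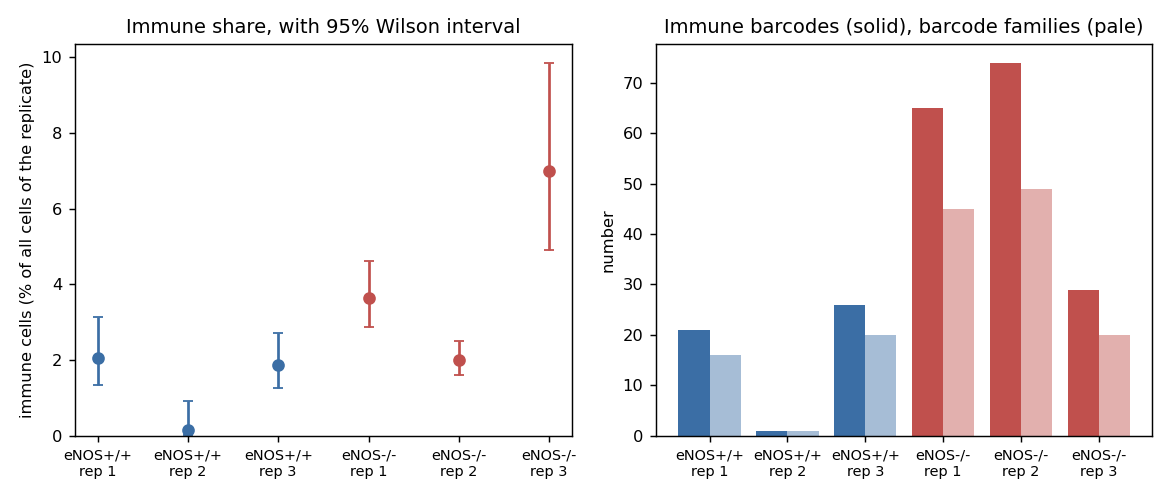
Left, immune cells as a percentage of all cells of each replicate, with 95% Wilson intervals, and right, the number of immune barcodes (solid bars) and of barcode families (pale bars), in blue for eNOS+/+ and red for eNOS-/-. The eNOS+/+ replicate 2 held 1 immune cell, and eNOS-/- replicate 3 had the highest share at 6.99%.

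The 4 genes of the label were found as the label says. C1qa, a chain of C1q (chromosome 4 of GRCm38, 136895917 to 136898803), had 362 UMIs in 112 immune cells. Its level was 1340, 0 and 2202 CPM in the eNOS+/+ replicates and 2137, 2252 and 2428 CPM in the eNOS-/- replicates. The value of 0 is that of the single cell, in which even 3 UMIs would be 8596 CPM. Cx3cr1, the receptor for the neuronal chemokine fractalkine (chromosome 9, 119901616 to 120069879), had 273 UMIs in 96 cells and was at 2071, 2865 and 1495 CPM against 1572, 1657 and 1772 CPM. Csf1r, the receptor for the growth factor on which microglia depend, had 138 UMIs in 77 cells, with 609, 0 and 582 CPM against 841, 1105 and 394 CPM. Ptprc (CD45), the phosphatase common to leukocytes, was the sparsest, with 61 UMIs in 40 cells and 366, 0 and 125 CPM against 331, 510 and 459 CPM. Each of the 4 was present in 5 of 5 replicates that held more than 1 immune cell.

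At this depth a single gene misses many cells. At least 1 of the 4 genes was found in 162 of the 216 cells, and 12 cells held all 4. The 54 cells without any had a median of 300.5 UMIs. Of these, 29 had at least 2 genes of a list of 12 genes shared by macrophages and microglia (among them the C1q chains, Ctss, Tyrobp and Trem2), 7 had 1 such gene and 18 had none. Over all immune cells, 189 (87.5%) had at least 2 genes of that list, against 25 of 5925 ECs (0.422%) and 1 of 1508 rods (0.0663%). C1qa itself was found in 51.9% of immune cells, 0.203% of ECs and 0.199% of rods, with medians of 518, 682 and 361 UMIs per cell. After all cells had been drawn down to 500 UMIs, which kept 114 of the immune cells, these shares were 64.0%, 0.113% and 0.475%. Immune cells had the highest share at both depths, while ECs and rods changed places.

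C1qb (chromosome 4, 136880129 to 136886187) and C1qc (136889804 to 136893065) encode the other chains of C1q and lie beside C1qa. C1qb had 599 UMIs in 142 cells, at 2802, 0 and 3365 CPM in eNOS+/+ and 3599, 3697 and 3938 CPM in eNOS-/- replicates. C1qc had 327 UMIs in 117 cells, at 3655, 0 and 2368 CPM against 1351, 2061 and 2954 CPM. At least 1 chain was found in 164 cells and all 3 in 81. The pooled level of C1qa was 330-fold, that of C1qb 431-fold and that of C1qc 298-fold that of Structural ECs, the next type, where 26, 33 and 26 UMIs were counted. The cell types were defined on these counts, so such ratios are descriptions.

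The bases before the start of 5 genes that mark these cells are shown, of which C1qb, C1qc, Trem2 and Ctss are among the genes with the largest ratio of immune cells to the next type and Pf4 marks border macrophages. Sequences are from RefSeq (GRCm38.p6), 5′ to 3′ on the strand of the gene, and capitals mark GAGGAA or its reverse complement TTCCTC, the core of sites of PU.1, the transcription factor encoded by Spi1 that macrophages need. The stretches are chr4:136886201-136886450 on the minus strand for C1qb, chr4:136893066-136893164 on the minus strand for C1qc, chr17:48346151-48346400 on the plus strand for Trem2, chr3:95526536-95526785 on the plus strand for Ctss and chr5:90772185-90772434 on the plus strand for Pf4. C1qc is shown for 99 bases, since the annotated gene covers the others, and each of the 5 holds the letters.
C1qb: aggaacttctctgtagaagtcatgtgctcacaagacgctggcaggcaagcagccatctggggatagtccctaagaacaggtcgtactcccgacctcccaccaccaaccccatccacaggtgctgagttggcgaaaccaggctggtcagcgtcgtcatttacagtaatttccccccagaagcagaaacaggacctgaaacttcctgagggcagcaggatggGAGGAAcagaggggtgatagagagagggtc
C1qc: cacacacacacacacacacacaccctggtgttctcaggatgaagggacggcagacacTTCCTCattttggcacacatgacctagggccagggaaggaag
Trem2: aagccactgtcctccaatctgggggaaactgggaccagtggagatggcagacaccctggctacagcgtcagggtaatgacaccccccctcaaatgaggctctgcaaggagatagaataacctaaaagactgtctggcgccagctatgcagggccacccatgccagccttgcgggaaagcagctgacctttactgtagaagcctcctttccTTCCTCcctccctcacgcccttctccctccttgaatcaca
Ctss: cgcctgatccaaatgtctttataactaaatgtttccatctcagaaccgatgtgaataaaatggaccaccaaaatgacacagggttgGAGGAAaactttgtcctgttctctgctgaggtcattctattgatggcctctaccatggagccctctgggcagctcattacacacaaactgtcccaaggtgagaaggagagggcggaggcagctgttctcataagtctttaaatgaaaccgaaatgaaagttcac
Pf4: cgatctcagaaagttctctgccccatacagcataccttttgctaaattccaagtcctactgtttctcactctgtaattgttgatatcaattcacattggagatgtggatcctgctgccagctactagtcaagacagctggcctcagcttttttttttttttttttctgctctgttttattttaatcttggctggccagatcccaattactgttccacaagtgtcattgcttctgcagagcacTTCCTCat
Of the 25 genes with the largest ratio of immune cells to the next type, 19 had an entry in the reference table, with 20 promoters, and 12 of these held the 6 letters on either strand within 250 bases before the start. Over all 32851 promoters of the table the share was 23.3%. The match of letters is a description and not a binding site. Spi1 itself had 30 UMIs in 22 immune cells, and 7 UMIs in Structural ECs.

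Among 945 genes with at least 30 UMIs in immune cells, 74 were at least 10-fold and 30 at least 100-fold above the next type, and 98 were highest in immune cells in each of the 5 replicates with more than 1 immune cell. With the single-cell replicate required as well, 15 genes remained, among them Ctss, Hmox1, Cx3cr1, Laptm5 and Apoe. The 25 genes with the largest ratio were nearly all myeloid. Fcrls, an Fc receptor-like gene of microglia, was at 1006 ± 396 CPM (SD, n = 5), and 1 UMI of it was counted in rods, the next type. Trem2, a lipid receptor of microglia, was at 973 ± 169 CPM (SD, n = 5) and Tyrobp, its signalling adaptor, at 1981 ± 439 CPM (SD, n = 5). Ctss, a lysosomal cysteine protease, was found in the most cells of the 25, 180 of the 216, at 4874, 2865 and 6854 CPM in eNOS+/+ and 7156, 8073 and 7679 CPM in eNOS-/- replicates. The antibody receptor genes Fcgr3 and Fcer1g, the bactericidal genes Lyz2 and Mpeg1 and the scavenger receptor gene Cd68 were also among them, at pooled levels of 633, 1236, 2729, 836 and 531 CPM. Trem2 and Cd68 were even among the 5 replicates, whereas Mpeg1 ranged from 263 to 979 CPM. Others were more uneven. The chemokine gene Ccl4 ranged from 82.7 to 3413 CPM among the 5 replicates, highest in eNOS-/- replicate 3, and Il1b, encoding interleukin-1 beta, from 122 CPM in eNOS+/+ replicate 1 to 1678 CPM in eNOS-/- replicate 2. Il1b had 142 UMIs in 23 cells.

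**Figure D2:**
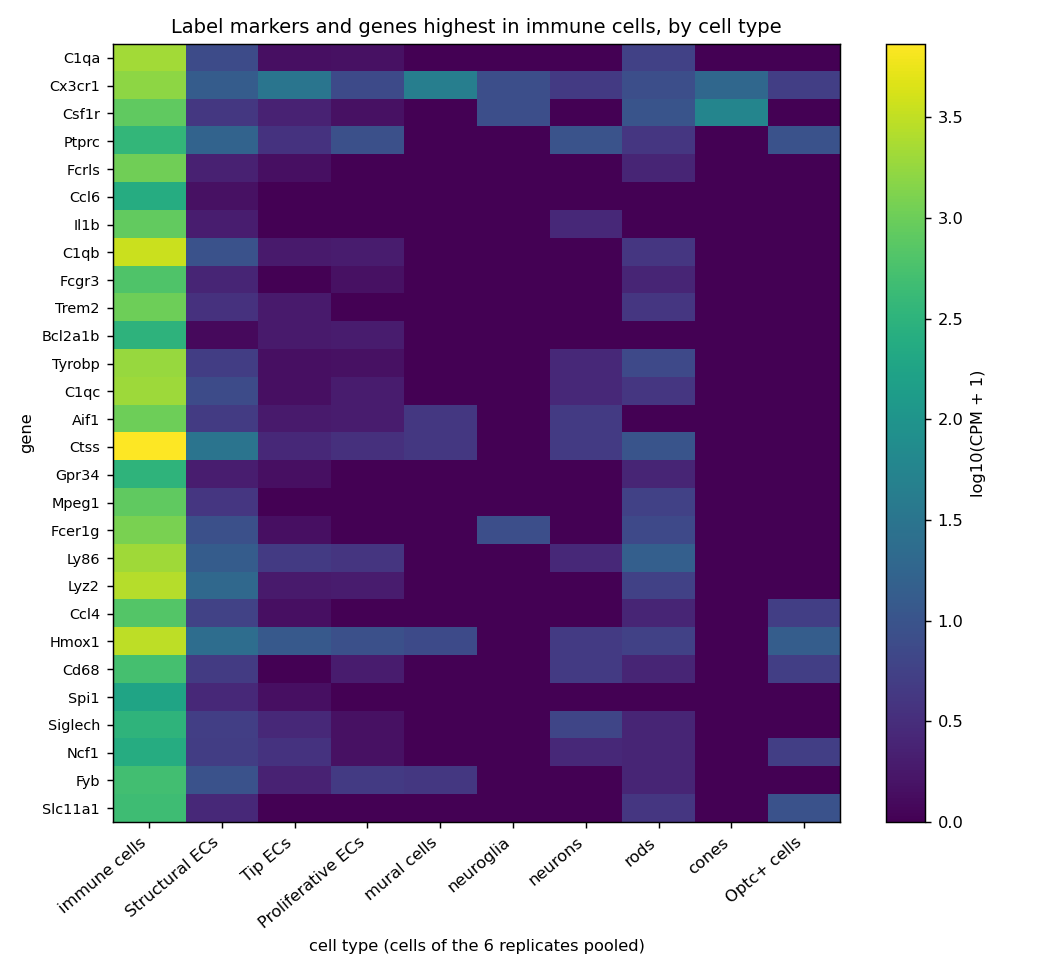
Levels of the 4 label markers and of the genes with the largest ratio of immune cells to the next cell type, as log10(CPM + 1) of pooled cells, in the 10 cell types. The immune column is the brightest in every row, with Ctss at 7297 CPM against 29.4 CPM in Structural ECs.

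Of the lineage lists, those of microglia and of genes shared with macrophages were found in the most cells. All 10 genes of the microglia list had a UMI. Among those, Fcrls (176 UMIs, 77 cells), Olfml3 (92, 58 cells), P2ry12 (87, 49 cells), Gpr34 (55, 36 cells) and Siglech (54, 28 cells) were frequent, and the more specific Tmem119 and Sall1, a transcription factor of microglia, had 25 UMIs in 19 cells and 11 UMIs in 8 cells. At least 2 microglia genes were found in 105 cells. Border macrophage genes were found at 2 or more in 19 cells, led by Pf4, a chemokine gene of platelets and border macrophages (133 UMIs, 17 cells), and Mrc1, the mannose receptor CD206 (39 UMIs, 16 cells). Of the 17 Pf4 cells, 15 also had Mrc1 and 4 had at least 2 microglia genes. Cells here are barcodes, and several Pf4 cells shared a barcode family. Monocyte genes were found at 2 or more in 5 cells, from Plac8 (25 UMIs, 7 cells) and Ccr2, the receptor that draws monocytes from blood (9 UMIs, 5 cells). Plac8 or Ccr2 was found in 8 cells, and none of these had a UMI of Pf4. Dendritic cell genes were found at 2 or more in 3 cells. Cd74, the invariant chain of antigen presentation, was the most frequent of them (64 UMIs, 22 cells), whereas Flt3 and Xcr1 had 0 UMIs.

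Lymphocyte genes were sparse under the label. No immune cell had 2 or more genes of the T cell, NK cell or B cell lists, and 0 of 216 allows up to 1.39% of cells with 2 such UMIs. This is no limit on lymphocytes, which at this depth need not show 2 genes of a list. The 10 T cell genes summed to 1 UMI, and both genes of the NK cell list that were in the table had 0. Igkc, the kappa light chain of antibodies, had 0 UMIs in 167465, which allows up to 17.9 CPM, while Ighm, the heavy chain of IgM, had 31 UMIs in 22 cells (10.2%, against 0.0663% of rods). Cells with 2 or more B cell genes did occur elsewhere, 64 of them labelled Structural ECs, as did 11 Structural ECs and 2 Proliferative ECs with 2 or more T cell genes. Likewise 22 Structural ECs, 2 Tip ECs and 1 Proliferative EC had 2 or more of the shared macrophage genes. Of the neutrophil list 2 genes were in the table, of which Csf3r had 11 UMIs in 10 cells and Lcn2 had 0, so neutrophils are not assessed here.

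Clustering of the 216 cells by their own variable genes gave 9 sub-clusters, numbered by size (49, 31, 28, 26, 23, 17, 15, 15 and 12 cells). The genes that lead a sub-cluster also formed it, so their levels describe the sub-clusters and were not tested. Sub-clusters 2 and 7 had low depth (medians of 440 and 436 UMIs) and no leading gene of a fixed list, and they stay unnamed, as does sub-cluster 5 with a median of 349 UMIs.

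Sub-cluster 3 (28 cells, 17 barcode families) was border macrophage-like, with 7 genes of that list. Pf4 was at 7752 CPM in 13 of its cells against 118 CPM in the other immune cells, Mrc1 at 2359 against 26.2 CPM, Ms4a7 at 1213 against 26.2 CPM, and F13a1, coagulation factor XIII, at 742 against 19.7 CPM. It also held the monocyte genes, with Plac8 at 1483 against 19.7 CPM and Ccr2 with 9 UMIs against 0, and the interferon-induced genes Ifitm3 (4112 against 124 CPM) and Ifi27l2a (3034 against 85.2 CPM). The Pf4 cells of sub-cluster 3 came from 6 barcode families, and its Mrc1, Ms4a7 and F13a1 cells from 5 each. P2ry12 was found in 2 cells of the sub-cluster. Border macrophage and monocyte genes thus fell in 1 sub-cluster, although none of the 8 immune cells with Plac8 or Ccr2 had a UMI of Pf4. The median of sub-cluster 3 was 400 UMIs, at which a cell can miss Pf4, so this does not settle whether they were different cells.

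Sub-cluster 6 (17 cells, 8 families) was led by genes of acute inflammation. Il1b was at 7225 CPM in 16 of its 17 cells against 113 CPM in the other immune cells, Cd14, the co-receptor for bacterial lipopolysaccharide, at 6473 against 226 CPM, Nfkbia, the inhibitor that NF-kappaB induces, at 6704 against 426 CPM, and Tnf at 983 CPM in 5 cells. C1qa was at 3526 CPM and Fcrls, a microglia gene, at 1561 CPM, so these cells did not lack microglial transcripts. Hmox1 had 2 UMIs in them. Its cells lay in eNOS+/+ replicates 1 (1 cell) and 3 (2 cells) and in eNOS-/- replicates 1 (4 cells) and 2 (10 cells).

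Sub-cluster 1, the largest (49 cells, 38 families), carried genes of heme and iron handling. Hmox1, which encodes heme oxygenase-1 (chromosome 8, 75093621 to 75100589), was at 6869 CPM in 32 of its cells against 1961 CPM in the other immune cells. Gclm, for glutathione synthesis, was at 1222 against 210 CPM, Sqstm1, an autophagy adaptor, at 1746 against 353 CPM, and the ferritin gene Fth1 at 54660 against 21539 CPM. The haemoglobin genes Hbb-bs and Hba-a2 ranked 1 and 2 among the leading genes of sub-cluster 1, so they also formed it. Hba-a2 was in 10 of its cells and 6 others and Hbb-bs in 12 of its cells and 5 others. Over all immune cells, 23 had a UMI of Hba-a2 or Hbb-bs, and 17 of these had a UMI of Hmox1, against 67 of all 216. Haemoglobin RNA was also found outside the label, with Hba-a2 in 3.16% of ECs and 2.79% of rods against 7.41% of immune cells, and whether it was taken up or free was not tested. By replicate Hmox1 in all immune cells was at 1706, 14327 and 4736 CPM in eNOS+/+ (5 UMIs in the single cell) and 3199, 1445 and 4201 CPM in eNOS-/- replicates.

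Sub-cluster 8 (15 cells, 9 families) was microglia-like and contained cycling cells. P2ry12 was at 1443 CPM in its cells against 454 CPM in the other immune cells, Fcrls at 2345 against 959 CPM and Tmem119 at 902 against 95.9 CPM. The mitotic genes Top2a (1713 against 89.5 CPM), Cenpf (1533 against 6.39 CPM) and Mki67 (992 against 51.2 CPM) led it, in 7, 5 and 5 cells, but each of the 3 genes came from only 2 barcode families of this sub-cluster. Hmox1 had 0 UMIs there. Sub-cluster 4 (26 cells, median 1562 UMIs) was the deepest. It carried C1qa in 22 and Ctss in all 26 cells, together with the pericyte gene Rgs5 in 3 cells and the EC tight-junction gene Cldn5 in 5, and with the monocyte attractant Ccl2 in 7 cells.

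Sub-cluster 9 went against the label. Its 12 cells (12 families, 250 to 1571 UMIs) were pigment epithelium-like and held 1 UMI of the shared macrophage list in all, with C1qa, C1qb and Ctss at 0. Ttr, encoding the retinol carrier transthyretin, was in 12 of 12 cells with 424 UMIs, and 2 other immune cells had any. Rpe65, the isomerase of the visual cycle in pigment epithelium, had 26 UMIs in 10 of its cells and 0 in the other immune cells. Rgr and Clu were in 12 of 12 cells and Rdh5 in 9, and each had 0 UMIs in the others. Dct, a melanin synthesis enzyme, had 199 UMIs there, and 225 more lay in 2 cells of sub-cluster 5 that held 0 and 1 shared macrophage genes. Those 2 cells also held Mlana, Pmel and Tyrp1 (34, 40 and 20 UMIs), but Ttr, Rpe65, Rgr and Rdh5 had 0 UMIs in sub-cluster 5. They stay unnamed and were kept when sub-cluster 9 was left out. All 12 cells came from eNOS-/- replicates 1 (4 cells) and 2 (8 cells), and the integrated cluster 24 of the authors, 1 of 2 that make up the label, held all of them together with 28 cells of sub-cluster 1. Without these 12 cells the difference in the share of immune cells between genotypes was 2.70 percentage points (exact permutation p = 0.3). The other shares of immune cells are given with them.

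**Figure D3:**
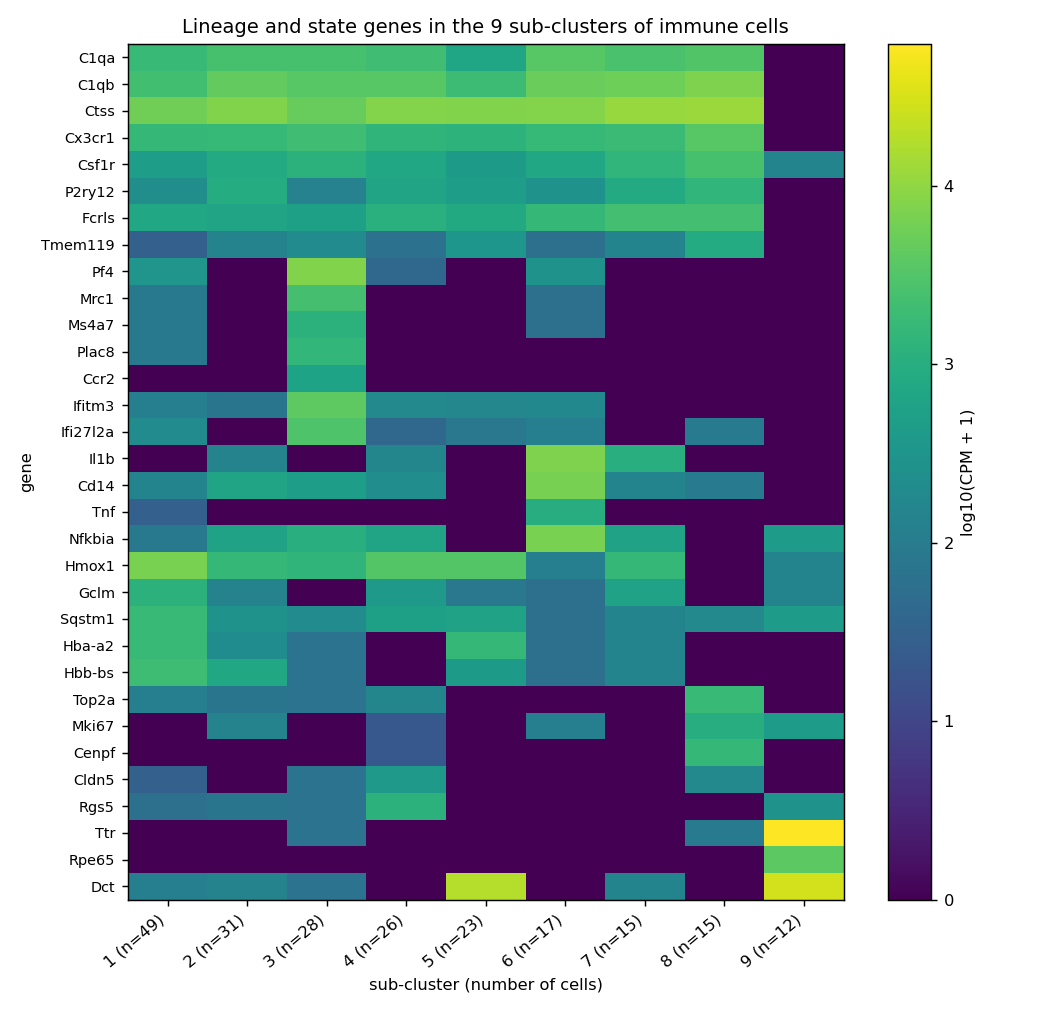
Levels of lineage and state genes in the 9 sub-clusters of immune cells, as log10(CPM + 1) of pooled cells. Macrophage genes at the top fill sub-clusters 1 to 8 and, except for 1 UMI of Csf1r, are at 0 in sub-cluster 9, which has Ttr, Rpe65 and Dct.

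No sub-cluster passed a test of its share of immune cells between genotypes. Sub-cluster 1 made up 38.1%, 0% and 38.5% of immune cells in eNOS+/+ and 21.5%, 12.2% and 27.6% in eNOS-/- replicates. Both eNOS+/+ replicates with more than 1 cell lay above all eNOS-/- replicates, and the means were 25.5% ± 22.1 (SD, n = 3) and 20.4% ± 7.77 (SD, n = 3). Sub-cluster 3 made up 9.52%, 0% and 15.4% against 9.23%, 16.2% and 13.8%, and its difference ranged from 0.626 to 8.32 points when a replicate was left out. Its lineages were not alike in all replicates. Over all immune cells the border macrophage list summed to 1218, 2865 (1 UMI) and 1495 CPM in eNOS+/+ and 1489, 1806 and 0 CPM in eNOS-/- replicates, whereas the monocyte list was at 0 in the eNOS+/+ replicates and at 110, 149 and 1510 CPM in the eNOS-/- replicates. The eNOS-/- replicate 3 thus held 23 of the 38 monocyte UMIs and no border macrophage UMI. In the eNOS+/+ replicates a count of 3 UMIs would be 366, 8596 and 125 CPM. Their monocyte values of 0 are therefore not set apart from 110 CPM, nor in replicates 1 and 2 from 149 CPM. Sub-cluster 6 ranged from 0% to 13.5% in eNOS-/- replicates alone. Over the 9 sub-clusters the adjusted p was 0.750 to 0.800 (exact permutation tests, Benjamini-Hochberg adjustment), in a design that cannot go below an unadjusted 0.1.

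Pecam1, the gene of the CD31 protein used for enrichment, was found in 86 of 216 immune cells (39.8%), between 19.6% of rods and 57.2% of ECs. Its level was 1340, 0 and 1288 CPM in eNOS+/+ and 1448, 616 and 1313 CPM in eNOS-/- replicates, and 1170 CPM over all, near the 1199 CPM of Structural ECs and above the 590 CPM of rods. Cldn5, which ECs express and leukocytes lack, was in 3.70% of immune cells, 3.51% of rods and 52.3% of ECs. Of the 8 immune cells with Cldn5, 5 lay in sub-cluster 4, at 381 CPM against 34.0 CPM in the other immune cells, and Egfl7, another EC gene, was in 6 cells of that sub-cluster and 3 others. How EC transcripts came to be in these cells was not tested. Of the Pecam1 cells, 69 had no other gene of the 10 EC genes. Drawn down to 500 UMIs, Pecam1 was in 36.0% of immune cells and 22.6% of rods.

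Pathway genes other than markers were described by fixed lists. Of the growth factors, Igf1 had 88 UMIs in 47 cells and was at 525 CPM, against 190 CPM in Optc+ cells, the next type, whereas Vegfa was at 41.8 CPM against 2420 CPM in neuroglia. Genes of activated microglia were found in part of the cells, with Lpl, lipoprotein lipase, in 65 cells, Lgals3, galectin-3, in 42, Clec7a, the beta-glucan receptor, in 38 and Spp1, osteopontin, in 11. Of the antigen presentation genes, B2m was in 174 and H2-D1 in 88 cells, and the class II genes H2-Ab1 and H2-Aa in 6 and 2. Among the lineage factors, Maf (83 UMIs), Mef2c (82 UMIs) and Irf8 (46 UMIs) were the most frequent. Nos3, the gene targeted in eNOS-/- mice, had 0 UMIs in immune cells, as did Nos2, the inducible enzyme, and Arg2, while Nos1 had 1 UMI. The genotype labels can therefore not be checked by Nos3 in these cells.

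Between genotypes, the UMIs of immune cells were summed per replicate and compared with edgeR's quasi-likelihood test and Benjamini-Hochberg adjustment. No gene was called among the 277 with enough counts (0%), and 8 genes (2.89%) had an unadjusted p under 0.05, of which 5 were higher and 3 lower in eNOS-/- replicates. DESeq2 called 0 of the same genes, with 6 at an unadjusted p under 0.05. Without eNOS+/+ replicate 2, 464 genes were tested, 0 were called and 21 (4.53%) had an unadjusted p under 0.05. Without eNOS+/+ replicate 3 (255 tested) or eNOS-/- replicate 2 (263 tested) there were also 0 calls. The other 3 fits with a replicate left out gave calls: Ptgds, Dct and Ttr without eNOS+/+ replicate 1, the same 3 with Hbb-bs and Hba-a2 without eNOS-/- replicate 3, and Trf and Ier3 without eNOS-/- replicate 1. Ptgds, Dct, Ttr and Trf are among the genes of the pigment epithelium-like sub-cluster. Ptgds had 172 UMIs in 12 of its 12 cells and 74 UMIs in the other immune cells, 72 of them in 2 cells of sub-cluster 5. The fit over all replicates had 0 calls with sub-cluster 9 and 0 without it. Without it, 9 genes had an unadjusted p under 0.05 and the smallest adjusted p was 0.993. The 3 fits that gave calls were not repeated without sub-cluster 9, so its part in those calls was not tested.

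The gene nearest to a call was Trf, which encodes the iron carrier transferrin. It was at 366, 0 and 208 CPM in eNOS+/+ and 1048, 2889 and 788 CPM in eNOS-/- replicates. The value of 0 is that of the single cell, in which 3 UMIs would be 8596 CPM. The log2 fold change was 2.90 (standard error 0.81, edgeR adjusted p = 0.0948). Leaving out eNOS+/+ replicate 2 gave 2.87 for Trf (standard error 0.83, edgeR adjusted p = 0.796). Sub-cluster 9 held 125 of its 232 UMIs, and without that sub-cluster the log2 fold change was 1.82 (edgeR unadjusted p = 0.0136). P2ry12, the receptor by which microglia sense ADP, was at 0, 0 and 291 CPM against 524, 616 and 853 CPM, at a log2 fold change of 1.87 (standard error 0.78, edgeR adjusted p = 0.991). In the first eNOS+/+ replicate a count of 3 UMIs would be 366 CPM, so its 0 is below what the depth resolves. The same holds for the 0 of the single cell. Without eNOS+/+ replicate 2 the log2 fold change of P2ry12 was 1.91 (edgeR adjusted p = 0.796). Nfkbia was at 731, 0 and 623 CPM against 496, 1997 and 1903 CPM, and the groups overlapped (log2 fold change 1.41, edgeR adjusted p = 0.991). Ppp1r16b, a phosphatase regulator, was highest in eNOS-/- replicate 1 at 2992 CPM and between 0 and 892 CPM in the others.

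Of the genes with lower levels in eNOS-/- replicates, Ybx1, an RNA-binding protein, was at 1462, 0 and 1371 CPM against 400, 531 and 591 CPM. Both eNOS+/+ replicates with more than 1 cell lay above all eNOS-/- replicates, at a log2 fold change of -1.19 (standard error 0.56, edgeR adjusted p = 0.991) and of -1.27 without the single-cell replicate (standard error 0.39, edgeR adjusted p = 0.796). Efhd2, a calcium-binding protein, was at 609, 2865 and 582 CPM against 179, 212 and 0 CPM (log2 fold change -1.70, edgeR adjusted p = 0.991), where 2865 CPM is 1 UMI. Hba-a2 had 18 of its 87 UMIs in the single cell, and its log2 fold change of -1.85 turned to 0.82 without that cell. Fabp5 and Rpl35 had log2 fold changes of -1.10 and -1.33 with overlapping groups. No label marker passed the test. The log2 fold change was 0.69 (standard error 0.64) for C1qa, 0.19 (standard error 0.65) for Cx3cr1 and 0.76 (standard error 0.60) for Csf1r, and Ptprc had too few UMIs for the test. Without sub-cluster 9 the log2 fold change was 0.72 for C1qa, 0.23 for Cx3cr1, 0.80 for Csf1r, 1.93 for P2ry12 and 1.43 for Nfkbia. mt-Rnr2 had 1.02 (standard error 0.86, 0.90 without sub-cluster 9) and mt-Co2 -0.58 (standard error 0.59).

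**Figure D4:**
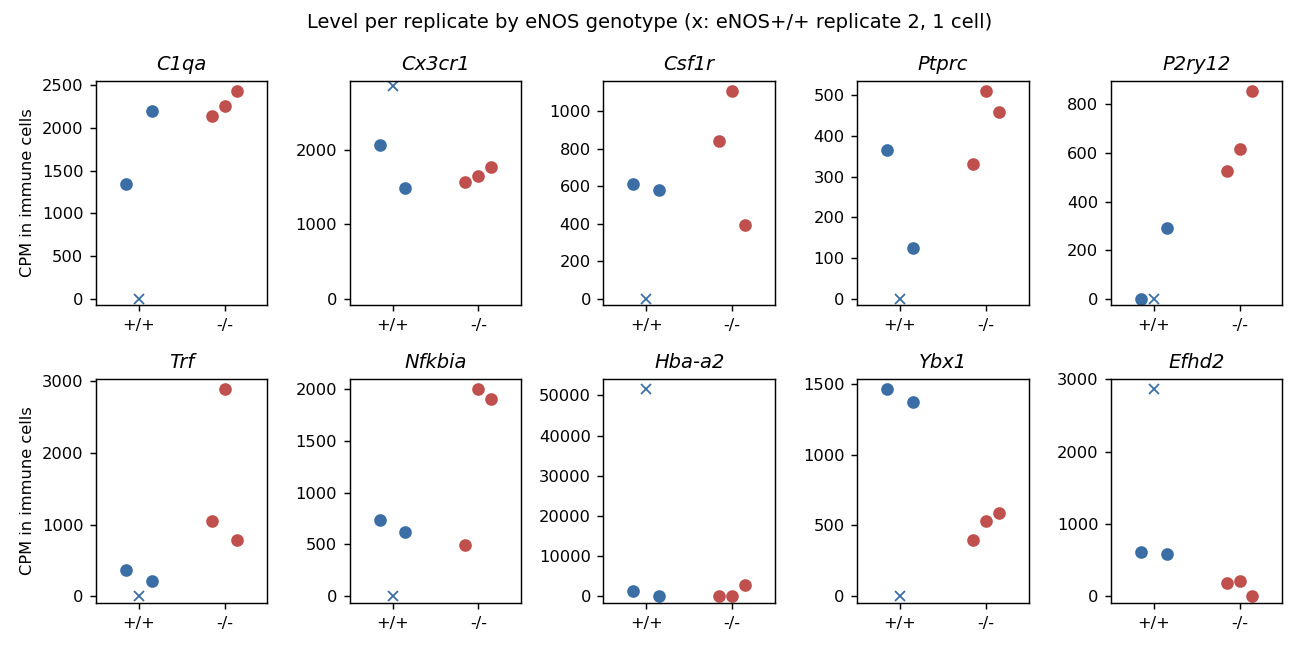
Levels (CPM) of the label markers and of genes of small p in the immune cells of each replicate, with 1 point per replicate, in blue for eNOS+/+ and red for eNOS-/-, and a cross for the replicate with 1 immune cell. The cross sets the highest values of Hba-a2 and Efhd2, and a single cell cannot resolve the levels of P2ry12 and Trf.

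By list, no member was called in any direction. The 15 lysosome and phagocytosis genes tested had a median log2 fold change of 0.69, with 13 above and 2 below 0, beside a median of 0.12 over all 277 genes, of which 168 were above 0. Without the single-cell replicate the medians were 0.55 over 18 genes and 0.05 over 464. The 3 C1q chains had a median of 0.68 and the 3 genes of class I presentation, B2m, H2-D1 and H2-K1, one of 0.44. Of the cytokine and feedback list 2 genes were tested, Il1b and Nfkbia. Nfkbia had an edgeR unadjusted p of 0.0431, and of 0.0911 without the single-cell replicate. No gene of the interferon, proliferation, immediate early, transcription factor or nitric oxide lists had enough counts. Genes without enough counts by UMIs were Selenop, a selenium carrier (4, 0 and 3 UMIs against 46, 51 and 6), Apod (2 UMIs in all) and AI506816, which had 6 UMIs in eNOS+/+ replicate 3 and 0 in the other replicates. These are raw counts, from sums of 8207, 349 and 24073 UMIs in eNOS+/+ and 72529, 47071 and 15236 UMIs in eNOS-/- replicates. They are not scaled to depth and do not compare levels.

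Whether the genotypes differed otherwise in immune cells than in ECs was tested with an interaction term on 12 sums, the immune cells and the ECs of each replicate. edgeR called 0 of 277 genes (0%), with 10 at an unadjusted p under 0.05 and a smallest adjusted p of 0.0894, and DESeq2 called 0 with 18. Trf had a log2 difference of 2.47 (edgeR adjusted p = 0.270), with a log2 fold change in ECs of 0.33 (standard error 0.20). Without eNOS+/+ replicate 2 or eNOS-/- replicate 2 no gene was called, whereas leaving out eNOS+/+ replicate 1, eNOS+/+ replicate 3, eNOS-/- replicate 1 or eNOS-/- replicate 3 gave 3, 6, 1 and 6 calls. Lyz2, which ECs hold at few UMIs, was among the calls in each of these 4. It was the only call when eNOS-/- replicate 1 was left out. The label marker C1qa and the melanin synthesis gene Dct were among the calls in each of the other fits with calls. Over all replicates C1qa had a log2 difference of 2.98 (edgeR adjusted p = 0.270). ECs rarely held C1qa, with a UMI in 12 of 5925 cells.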

How the data were processed

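Retinal cells enriched for CD31 were profiled by Drop-seq in 3 eNOS+/+ and 3 eNOS-/- replicates. Reads were quantified by the authors with kb-python (GRCm38). They dropped cells of high mitochondrial content (limit 10%) or with few genes, integrated the replicates (Seurat 3, per the submitters' processing notes) and named 10 cell types. The deposited files give raw UMI counts per gene and cell, not normalized, and each cell's replicate and type. The deposited annotation calls all cells singlets, and no doublet caller was run here. In that annotation 1 column names 2 of the eNOS+/+ replicates alike, and the replicate column was used.

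Cells labelled Immune were summed per replicate. edgeR 4.0.16 was run with filterByExpr, TMM, the quasi-likelihood test and a limit of 0.05 on the adjusted p, and DESeq2 1.42.0 on the same sums in R 4.3.3. Standard errors were derived from fold change and F statistic. The TMM factor was 3.23 for the replicate with 1 immune cell and 0.759 to 0.806 for the others. P-values measure the spread between pools of retinas. For the replicate with 1 immune cell, the value of the pool also holds the sampling of that single cell. Sub-clusters were made with scanpy 1.11.5 (1000 variable genes, 10 components, 10 neighbours, Leiden resolution 1), and leading genes needed 3 cells, with 100 CPM added before ratios. Cells were also drawn down to 500 UMIs, which left out 102 immune cells. For shares the test was an exact permutation test, two-sided. Lists held genes not analysed here, and a gene at 0 is limited to 3 UMIs of its total. Gene positions are from GENCODE for GRCm38. The code was tested on simulated data.

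Members and lists were chosen with earlier results of these data known. Named genes were the label markers, the 25 of largest ratio to the next type (over the 5 replicates with more than 1 immune cell, since only 15 genes passed in all 6), list markers, the 5 smallest p in each direction, list members with p under 0.05, and Nos3, AI506816, Selenop, Apod, Igkc, mt-Rnr2 and mt-Co2. Other genes were chosen after their values were seen. The values of 1 list gene are not reported here. Alternatives were DESeq2, RLE scaling, no filter, each replicate left out, a replicate block, deeper cells, 1 cell per barcode family, no mitochondrial genes, the largest sub-cluster, other denominators, resolutions and marker calls. Those chosen after seeing the data were leaving out sub-cluster 9, no scaling factors, and the family and paired versions of sub-cluster shares.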

Additional observations from a re-analysis of the deposited data

How the results depend on the processing

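The eNOS+/+ replicates held 21, 1 and 26 immune cells, and 277 of 11121 genes had enough counts for the test. The count of genes called between genotypes was 0 as reported and ranged from 0 to 5 when a replicate was left out. It was 2 with 1 cell per barcode family (Trf and Hba-a2) and 1 with mitochondrial genes removed (Trf). It was 0 with DESeq2, RLE scaling, no filter, no scaling factors, deeper cells, the largest sub-cluster alone and without sub-cluster 9. With the replicate block it was 0 of 277, with 3 genes at an unadjusted p under 0.05. Same-numbered replicates correlated at -0.00427, -0.0906 and -0.132 in their deviations from the group means, and the other pairs at -0.0355 to 0.119. With so few replicates, 1 of them a single cell, these values cannot decide whether the numbers pair the samples.

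The interaction with ECs ranged from 0 to 6 calls when a replicate was left out and had 0 under the other alternatives. The difference in the share of immune cells kept its sign in every alternative, from 1.45 to 3.95 points when a replicate was left out, and was 2.54 points by barcode family (exact permutation p = 0.3), 12.3 points among cells neither ECs nor rods (p = 0.2), 2.82 points in cells with at least 500 UMIs (p = 0.1) and 2.85 points in the paired form (exact permutation p of sign changes 0.25). Of 227 log2 fold changes of named genes under an alternative, 217 kept direction and side, 5 passed the limit and 5 turned: Hba-a2 to 0.82 without eNOS+/+ replicate 2 (its range when a replicate was left out was -4.55 to 0.82), to 0.83 without sub-cluster 9 as well and to 1.21 in the largest sub-cluster, Cx3cr1 to -0.0201 without scaling factors and mt-Co2 to 0.0322 without a filter. The median over all tested genes moved from 0.12 to -0.0587 without scaling factors. Genes at least 10-fold above the next type were 74 over pooled cells and 66 over the mean of replicates.

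Shares of sub-clusters turned sign in places and none passed a test. Leaving out replicates moved the difference from -17.8 to 1.38 points for sub-cluster 1, -3.11 to 12.7 for sub-cluster 2 and -1.07 to 5.68 for sub-cluster 6. Sub-cluster 1 was at 2.37 points with doubled resolution, sub-clusters 4 and 7 at -18.2 and sub-cluster 5 at 2.61 with halved resolution, sub-cluster 2 at -16.4 in deeper cells, sub-cluster 6 at -1.95 by family, and sub-cluster 3 at -3.49 when called by marker list. The causes were not tested.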
